A study of Mus musculus with 6 samples.

Results

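The libraries compared here are the 4 small RNA libraries of mouse serum that were prepared with the TailorMix kit or the NEBNext kit, 2 with each, out of 6 libraries in the series. They were chosen by the kit named in their labels. The other 2 libraries, made with the TruSeq kit, were not compared here. They entered only the common estimate of the spread between libraries, the minimum count for testing and, in some alternatives, the scaling. All serum came from healthy 129/SVj mice, a laboratory strain, of both sexes and 2 to 9 months of age. Neither the age nor the sex of the mouse behind a library is given. RNA was isolated from the serum of individual mice, and the labels number the sera 1 and 2 within each kit without saying whether a number stands for the same mouse in both kits. If the mice differed between the kits, differences of kit and of mouse cannot be told apart here. The TailorMix libraries were made with the miRNA sample preparation kit v2 of Seqmatic, and the NEBNext libraries with the Multiplex Small RNA kit of New England Biolabs. After amplification, both were cut to a size range of 125 to 153 bp. The question of the comparison was how the choice of kit shapes what small RNA sequencing of serum reports.

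Transfer RNAs carry amino acids to the ribosome, and each recognises its codons through an anticodon loop. When that loop is cleaved, the tRNA falls into a 5′ and a 3′ fragment, and the 5′ fragments of a few tRNAs circulate in mammalian blood in large amounts. miRNAs are shorter. They guide silencing complexes to messenger RNAs through their seed, the bases 2 to 8, and serum miRNAs are studied as markers of disease. Kits of this type attach adaptors to both ends of the RNA, copy it into DNA and amplify it, so a read count reflects both the RNA and how well the kit captures it. Shares of reads are therefore compared here between kits, and no absolute amount of RNA was measured.

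The reads annotated by the authors as a small RNA numbered 5144833 and 5300732 in the TailorMix libraries, and 26256012 and 16983247 in the NEBNext libraries. miRNA reads numbered 193468 and 196895 with TailorMix, and 224864 and 165139 with NEBNext, so the counting error for miRNAs was similar with both kits. Each tRNA value rests on a total of 4911281 and 5064283 tRNA reads with TailorMix, and 25976737 and 16767212 with NEBNext.

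The sequences below are shown as examples: miR-16-5p is a miRNA given by name, U7 and Snord21 were lower with TailorMix, and the differences of U1 and Snord104 depended on the total used. The mature sequence of miR-16-5p is identical at its 2 genes, Mir16-2 at chr3:69009918-69009939 on the plus strand and Mir16-1 at chr14:61631936-61631957 on the minus strand (GRCm38.p6, RefSeq). Its seed is in capitals. The others are transcripts of GENCODE release M21 on GRCm38, in DNA letters and without capitals. They are U1 snRNA from Rnu1a1 (chr11:87422867-87423030, plus strand), U7 snRNA from Rnu7 (chr6:124741225-124741286, minus strand), and the snoRNAs Snord21 (chr5:107904555-107904648, plus strand) and Snord104 (chr11:106500993-106501062, plus strand).
miR-16-5p: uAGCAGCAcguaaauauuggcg
U1 snRNA: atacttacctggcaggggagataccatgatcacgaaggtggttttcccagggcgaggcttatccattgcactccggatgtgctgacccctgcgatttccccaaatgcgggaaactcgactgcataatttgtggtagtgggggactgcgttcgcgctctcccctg
U7 snRNA: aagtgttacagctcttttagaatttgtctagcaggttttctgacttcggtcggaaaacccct
Snord21: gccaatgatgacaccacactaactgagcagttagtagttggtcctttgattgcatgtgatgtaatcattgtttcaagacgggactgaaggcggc
Snord104: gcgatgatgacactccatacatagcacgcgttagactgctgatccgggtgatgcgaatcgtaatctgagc

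With either kit nearly all annotated reads were tRNA, but TailorMix left more room for every other class. tRNA took 95.5% and 95.5% of annotated reads in the TailorMix libraries and 98.9% and 98.7% in the NEBNext libraries. miRNAs took 3.76% and 3.71% with TailorMix against 0.856% and 0.972% with NEBNext, a ratio of means of 4.09. Of the smaller classes, rRNA differed most, with 0.182% and 0.184% against 0.0223% and 0.0291%, a ratio of 7.13. The ratio was 3.13 for snoRNA, 2.59 for piRNA and 2.20 for snRNA. In each of these 6 classes both libraries of a kit lay on the same side of both libraries of the other. The exact permutation test of 2 against 2 libraries gave p = 0.333 (two-sided) for each class, which is the smallest p such a design allows, so these differences cannot pass a threshold by this test. The 95% Wilson interval of a share reached at most 0.0180 percentage points to either side, which covers counting error only, since copies made by PCR were not told apart.

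Without the tRNA reads the picture changed. Of the annotated reads that were not tRNA, miRNAs took 82.8% and 83.3% with TailorMix against 80.5% and 76.4% with NEBNext, and rRNA took 4.01% and 4.13% against 2.09% and 2.29%. Both of these remained higher in TailorMix. For piRNA the order turned, with 10.3% and 9.76% against 13.1% and 16.4%. It also turned for snRNA, with 2.02% and 2.01% against 3.22% and 3.79%, and for snoRNA, with 0.797% and 0.810% against 0.985% and 0.990%.

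Among the tRNA reads, the leading types took similar shares with both kits, while most of the others differed. Glu (glutamate) took 51.0% and 49.7% of tRNA reads with TailorMix and 50.9% and 50.7% with NEBNext. Gly (glycine) took 40.4% and 41.6% against 39.2% and 37.9%. The ranges of Glu overlapped and those of Gly did not, and neither type passed the test between kits (log2 fold change of TailorMix over NEBNext -0.01 ± 0.10 for Glu and 0.09 ± 0.11 for Gly, ± SE, adjusted p = 0.951 and 0.467 by edgeR's quasi-likelihood test). Below them the kits diverged, and 14 of 21 types (66.7%) passed at an adjusted p under 0.05. Of these, 6 types (28.6% of those tested) were higher and 8 types (38.1%) lower in TailorMix. The shares of 19 of 21 types did not overlap between the kits.

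**Figure D1:**
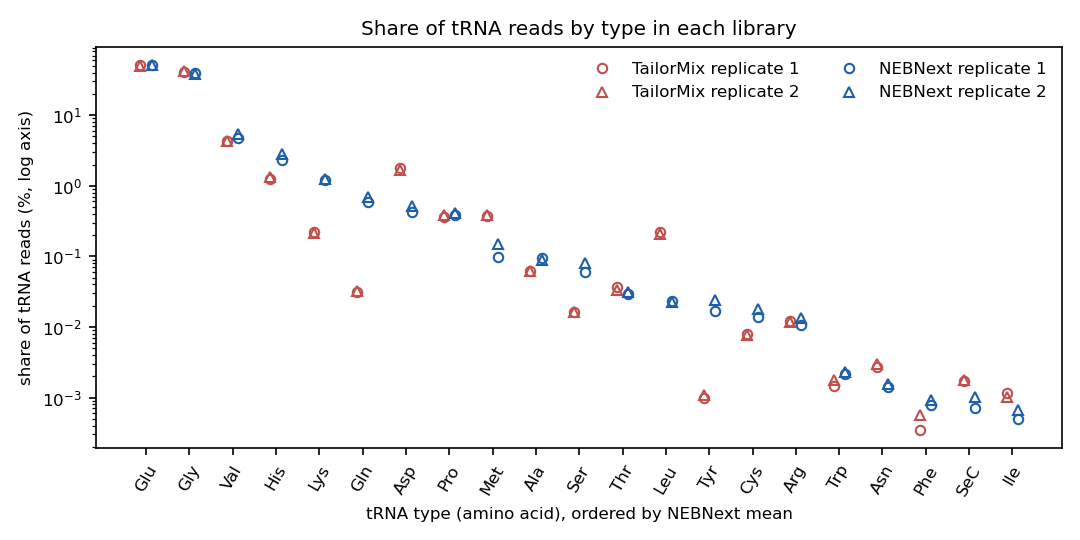
Share of tRNA reads (%, log axis) for each of 21 tRNA types in each of the 4 libraries, with TailorMix in red, NEBNext in blue, and circles and triangles for replicates 1 and 2. Glu and Gly coincide at the top left, whereas Gln, Tyr and Lys lie far lower and Leu, Asp and Met higher in both TailorMix libraries.

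Gln (glutamine) fell furthest. It was counted 1546 and 1622 times with TailorMix and 150855 and 117715 times with NEBNext, which is 0.0315% and 0.0320% of tRNA reads against 0.581% and 0.702%. The NEBNext mean was 20.2 times the TailorMix mean (log2 fold change -4.34 ± 0.18, adjusted p = 1.60e-32). Tyr (tyrosine) behaved alike on a smaller scale, with 48 and 55 counts against 4379 and 3996, a log2 fold change of -4.30 ± 0.23 and a NEBNext mean 19.7 times that of TailorMix. These p rest on a spread pooled over the 21 types, which are parts of 1 total.

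Lys (lysine) was the fifth type with NEBNext at 1.21% and 1.24% of tRNA reads, and the eighth with TailorMix at 0.223% and 0.215%. Its log2 fold change was -2.48 ± 0.14. Ser (serine) took 0.0161% and 0.0165% against 0.0601% and 0.0813% (log2 fold change -2.11 ± 0.18). His (histidine), the fourth type with NEBNext, took 1.25% and 1.35% against 2.30% and 2.81% (log2 fold change -0.97 ± 0.12, adjusted p = 6.52e-11). The remaining types that were lower in TailorMix were Cys (cysteine, -1.00 ± 0.18), Phe (phenylalanine, -0.89 ± 0.29) and Ala (alanine, -0.58 ± 0.17). Phe rests on 17 and 29 counts with TailorMix, and its call was lost without TailorMix replicate 1 (adjusted p = 0.137). That of Ala was lost without either TailorMix replicate, at an adjusted p of 0.0603 each time.

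Leu (leucine) rose most. It was counted 11025 and 10515 times with TailorMix and only 6106 and 3840 times with NEBNext, although the NEBNext libraries held several times as many tRNA reads. As shares these were 0.224% and 0.208% against 0.0235% and 0.0229%, a ratio of means of 9.31 (log2 fold change 3.22 ± 0.18, adjusted p = 9.12e-26). Asp (aspartate) took 1.78% and 1.69% against 0.422% and 0.510% (log2 fold change 1.89 ± 0.15). With it the order of the types changed, since Asp was the fourth type with TailorMix, above His, and the seventh with NEBNext. Met (methionine, the amino acid that starts proteins) took 0.378% and 0.390% against 0.0987% and 0.149% (1.64 ± 0.16).

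The other 3 types that were higher in TailorMix were scarce. SeC (selenocysteine, inserted at recoded stop codons) had 85 and 91 counts against 183 and 168 (log2 fold change 1.06 ± 0.23). Asn (asparagine) had 131 and 149 against 363 and 261 (0.93 ± 0.21), and Ile (isoleucine) had 57 and 51 against 128 and 112 (0.92 ± 0.25). Together the 6 types that were higher took 2.38% and 2.29% of tRNA reads with TailorMix against 0.547% and 0.685% with NEBNext, while the 8 that were lower took 1.59% and 1.68% against 4.28% and 4.97%. The direction of these sums follows from how the types were sorted.

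Besides Glu and Gly, 5 types did not pass. Val (valine), the third type with both kits, took 4.28% and 4.26% with TailorMix and 4.71% and 5.36% with NEBNext (log2 fold change -0.24 ± 0.11, adjusted p = 0.0508). It passed without NEBNext replicate 1 (adjusted p = 0.0306), without TruSeq replicate 1 (0.00162), without TruSeq replicate 2 (0.00189) and in a fit of the 4 libraries alone (0.00487). Trp (tryptophan) missed as narrowly, at -0.47 ± 0.22 (adjusted p = 0.0501), and passed without NEBNext replicate 1 (0.00965) or NEBNext replicate 2 (0.0217). Its single anticodon CCA, which holds all Trp reads, passed in the fit of the anticodons (adjusted p = 0.0475). The log2 fold change was -0.11 ± 0.15 for Pro (proline), -0.00 ± 0.18 for Arg (arginine) and 0.22 ± 0.17 for Thr (threonine). Thr passed without NEBNext replicate 2 (adjusted p = 0.0185).

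How many types count as lower depends on the total to which they are scaled. Scaled by TMM, which centres on types taken as unchanged, the median log2 fold change over the types moved by 1.50, from -0.11 to 1.40, and 20 types passed, 16 higher and 4 lower. Gln, Tyr, Lys and Ser were lower, and Leu, Asp, Met, SeC, Asn and Ile higher, under the total of tRNA reads, under TMM and with DESeq2. Cys, His, Phe and Ala turned to higher values under TMM. Within the tRNA reads that were neither Glu nor Gly, Asp took 20.5% and 19.5% with TailorMix against 4.24% and 4.45% with NEBNext. Lys took 2.58% and 2.49% of them against 12.1% and 10.8%, and Gln 0.363% and 0.370% against 5.83% and 6.12%.

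The reads were also compared by anticodon label, which is meant to separate isoacceptors, the tRNAs of 1 amino acid with different anticodons. A sequence found in genes of several isoacceptors is listed under only 1 of them. Some labels differed widely between replicates of a kit: with TailorMix, Pro AGG had 12741 and 3057 counts and Pro TGG 4185 and 14107. A change of a label therefore need not be a change of that isoacceptor. Of 47 anticodons tested, 29 passed (61.7%), 11 higher (23.4%) and 18 lower (38.3%) in TailorMix. Of 5 anticodons of Leu tested, 4 were higher. AAG had 6889 and 6517 counts against 4034 and 1570 (log2 fold change 3.43 ± 0.45), CAG 2393 and 2298 against 1303 and 1084 (3.03 ± 0.25), and TAG 1595 and 1576 against 654 and 1112 (2.80 ± 0.50). The scarcer CAA had 132 and 117 against 94 and 63 (2.76 ± 0.22), and TAA, with 16 and 7 against 21 and 11, did not pass (1.63 ± 0.59, adjusted p = 0.0636). CAA and TAA were added after their values were seen. The counts of Leu AAG and TAG differed between the NEBNext replicates by more than those of Leu as a whole. Gln CTG, the main anticodon of Gln in every library, had 864 and 1280 counts against 118009 and 75139 (-4.40 ± 0.29). Lys CTT had 9700 and 9713 against 300453 and 199323 (-2.59 ± 0.16) and made up between 88.4% and 95.9% of the reads of Lys in each library. His GTG, Asp GTC and Tyr GTA hold all or nearly all reads of their types and gave the log2 fold changes of the types. Their adjusted p by edgeR's quasi-likelihood test were 0.00271, 0.00156 and 0.000347. In the fit of the types the same reads gave much smaller adjusted p, at 6.52e-11, 1.89e-18 and 1.72e-26.

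**Figure D2:**
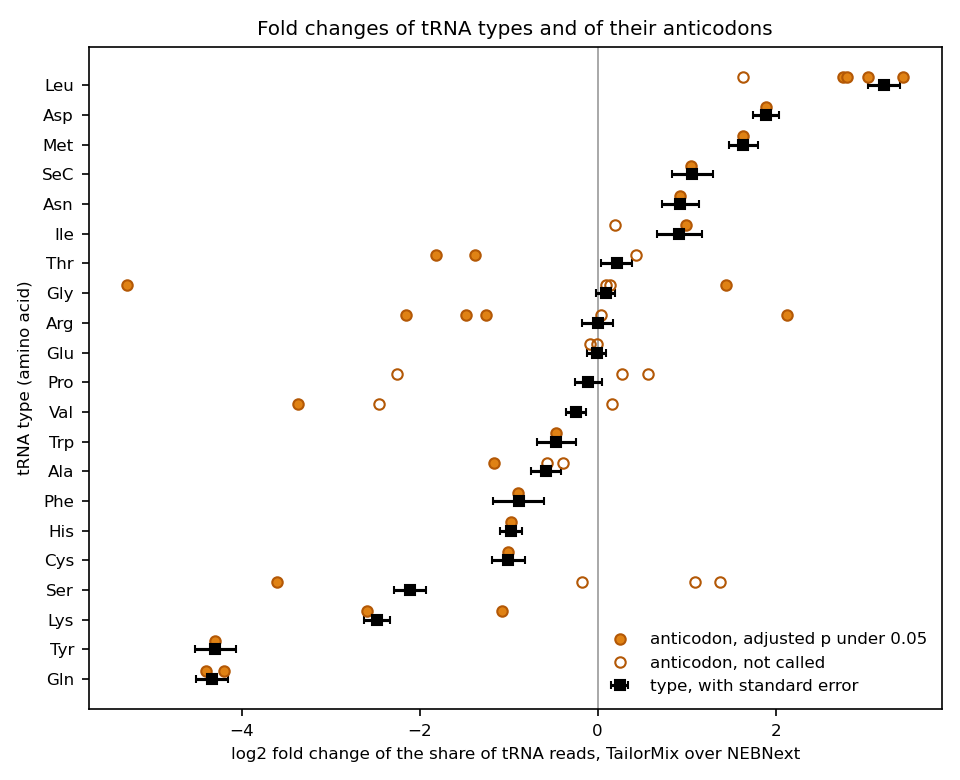
Log2 fold change of the share of tRNA reads, TailorMix over NEBNext, for each type (black squares with standard error) and each anticodon within it (circles, filled where the adjusted p was under 0.05). Types run from Gln at -4.34 to Leu at 3.22. The anticodons of Gly and Arg spread to both sides of 0.

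Within types that did not pass, single anticodons did. Gly ACC was counted 2 and 6 times with TailorMix and 672 and 626 times with NEBNext (log2 fold change -5.29 ± 0.58, adjusted p = 0.00172), the largest change of any anticodon tested, although it made up at most 0.00986% of the reads of Gly. Gly GCC, which holds over 99% of Gly reads in each library, took 40.2% and 41.4% of tRNA reads against 39.0% and 37.6% (0.09 ± 0.06, adjusted p = 0.228). Glu CTC (-0.00 ± 0.12) and Glu TTC (-0.09 ± 0.09) did not pass either. The following were chosen after their values were seen. Gly TCC had 1228 and 1362 counts against 2554 and 1542 and was higher in TailorMix (1.45 ± 0.17). Arg TCT was higher (2.13 ± 0.12) while Arg TCG (-2.16 ± 0.35), Arg CCT (-1.48 ± 0.20) and Arg CCG (-1.25 ± 0.33) were lower. Gly and Arg were the 2 types with called anticodons in both directions. Val TAC fell with 869 and 977 counts against 46856 and 33913 (-3.37 ± 0.23).

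Val also shows the limit of the anticodon labels. Val CAC took 4.03% and 4.01% of tRNA reads with TailorMix and 4.27% and 2.92% with NEBNext, while Val AAC took 0.231% and 0.225% against 0.266% and 2.24% (log2 fold change 0.16 ± 0.20 for CAC and -2.46 ± 0.99 for AAC, adjusted p = 0.515 and 0.0842). In NEBNext replicate 1 the Val sequences ranked 3 and 4 by abundance, with 267472 and 129409 reads, were listed under CAC. In replicate 2 the sequences of these ranks, with 185828 and 129803 reads, were listed under AAC. A sequence that occurs in genes of both isoacceptors is listed under only 1 of them, and sequences are not given, so whether these are the same sequences was not tested. Without NEBNext replicate 1 both anticodons passed, AAC at -3.30 and CAC at 0.46 (adjusted p = 0.00250 and 0.0352), and without NEBNext replicate 2 CAC was at -0.09 (adjusted p = 0.559).

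The kits also differed in how the reads of a type were spread over its distinct sequences, which are reads of different ends, lengths or genes. The most abundant sequence of Val carried 51.3% of its reads in both TailorMix libraries but 25.6% and 24.5% in the NEBNext libraries. For His it carried 57.1% and 57.8% against 33.7% and 28.2%, for Pro 54.0% and 54.5% against 22.0% and 20.6%, and for Met 53.0% and 52.6% against 27.5% and 28.8%. Glu followed the same direction, with 40.3% and 40.4% against 32.7% and 32.2%. Others were more concentrated with NEBNext. The leading sequence of Gly carried 39.8% and 40.2% with TailorMix against 66.6% and 66.0% with NEBNext, that of Tyr 16.7% and 18.2% against 68.4% and 69.9%, and that of Ser 50.5% and 51.6% against 84.4% and 84.3%. Tyr had only 48 and 55 reads with TailorMix, so its leading share there rests on few reads. In all, the leading sequence carried more in both TailorMix libraries for 7 of 21 types, less for 11, and overlapped for 3. These counts include scarce types such as Phe, with 17 and 29 TailorMix reads, and Ile, with 57 and 51. Whether the leading sequence was the same with both kits cannot be told from the lists, which number sequences separately in each library.

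**Figure D3:**
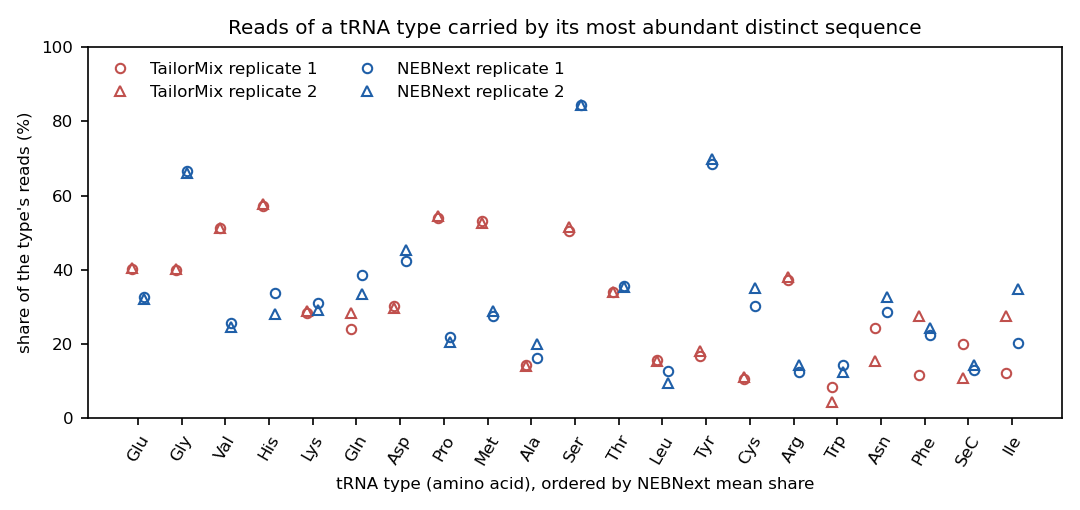
Share of the reads of each tRNA type (%) carried by its most abundant distinct sequence, in each of the 4 libraries (TailorMix red, NEBNext blue, circles and triangles for replicates 1 and 2). The replicates of a kit lie close together for the abundant types, Val, His, Pro and Met lie higher with TailorMix, and Gly, Ser and Tyr with NEBNext. Tyr rests on 48 and 55 reads with TailorMix.

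Fewer distinct sequences were listed in both TailorMix libraries for 19 of 21 types. In all, 7542 and 7706 tRNA sequences were listed with TailorMix against 12354 and 11241 with NEBNext. The NEBNext libraries also held several times as many tRNA reads, and the part of this in the difference was not tested. Gln, with 1546 and 1622 reads against 150855 and 117715, had 93 and 99 distinct sequences against 479 and 450. For Gly, whose share was similar with both kits, 1240 and 1315 were listed against 1391 and 1234, which overlap.

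The miRNA profiles also differed widely between the kits. The lists identify miRNAs only by miRBase numbers, and only miR-16-5p could be paired with its name, so the others are described by rank and 4 further numbers are given. Of 360 miRNAs tested, 280 passed (77.8%), 108 of them higher (30.0%) and 172 lower (47.8%) in TailorMix. Of those, 97 were higher and 160 lower by at least 2-fold, and 44 higher and 72 lower by at least 10-fold. The shares of 320 of 360 miRNAs (88.9%) did not overlap between the kits. The median absolute difference in share was 1.69 on the log2 scale between kits, against 0.17 between the TailorMix replicates and 0.15 between the NEBNext replicates.

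The split between higher and lower depended on the scale. Scaled by TMM, 141 were higher and 138 lower, and the median log2 fold change moved by 0.65, from -0.88 to -0.24. By share, 38.6% of the calls were higher in TailorMix and by TMM 50.5%. With DESeq2 200 passed, 106 higher and 94 lower. Under all 3, 98 miRNAs were higher and 94 lower. In reads, the 108 miRNAs that were higher made up 78.1% and 78.0% of miRNA reads with TailorMix but 19.0% and 18.3% with NEBNext. The 172 that were lower made up 16.5% and 16.6% against 76.0% and 76.6%. Since the miRNAs were sorted by these same shares, only the size of these sums is informative, not their direction.

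miR-16-5p, a miRNA abundant in blood cells, was among the leading miRNAs of only 1 kit. It took 5.14% and 4.89% of miRNA reads with TailorMix (9944 and 9634 counts) and 0.402% and 0.374% with NEBNext (904 and 617 counts). It was the fourth miRNA with TailorMix and ranked 49 with NEBNext, and its shares did not overlap. The ratio of means was 12.9 (log2 fold change 3.69 ± 0.10).

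**Figure D4:**
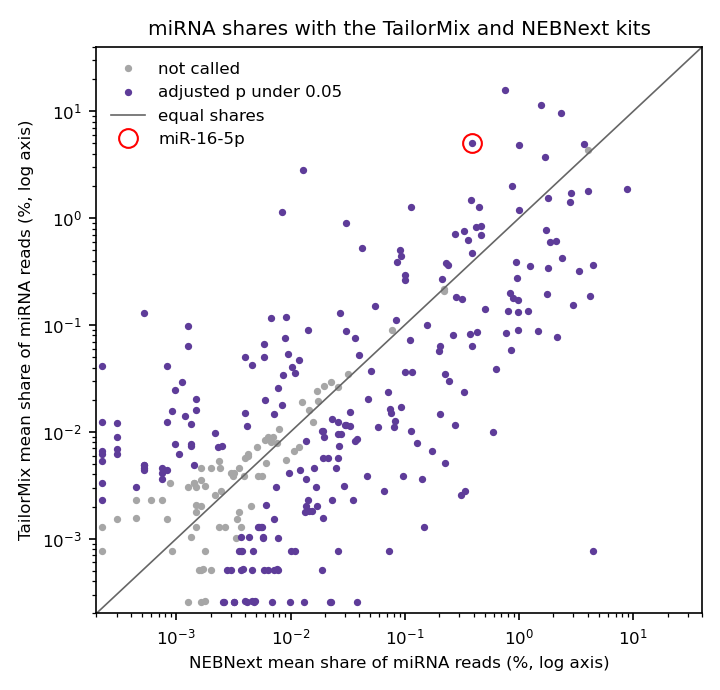
Mean share of miRNA reads (%, both axes log) with NEBNext (horizontal) and TailorMix (vertical) for 322 of the 360 miRNAs tested, leaving out 38 with no read in a kit, with called miRNAs in purple, others in grey, miR-16-5p circled and a line of equal shares. Points lie far to both sides of the line even among the most abundant miRNAs.

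The most abundant miRNA of a kit was not that of the other. The leading TailorMix miRNA took 15.7% and 15.6% of miRNA reads there but 0.779% and 0.730% with NEBNext, where it ranked 39, a ratio of means of 20.8. The leading NEBNext miRNA took 8.86% and 8.61% with that kit and 1.95% and 1.83% with TailorMix, where it ranked 11 (log2 fold change -2.21 ± 0.09). Of the 10 most abundant miRNAs of TailorMix, 9 were higher in TailorMix and 1 did not pass. Of the 10 of NEBNext, 8 were lower in TailorMix, 1 was higher and 1 did not pass. These miRNAs were picked for a high share with one kit, which favours that direction, so nothing is read from these counts beside the 30.0% higher and 47.8% lower of all miRNAs tested. The sets of 10 shared 2 miRNAs between any library of one kit and any of the other, but 10 between the TailorMix replicates and 9 between the NEBNext replicates. The ninth of TailorMix, at 2.84% and 2.86%, ranked 161 with NEBNext at 0.0142% and 0.0115%, and the fourth of NEBNext, at 4.05% and 4.32%, ranked 52 with TailorMix at 0.186% in each library.

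The same holds deeper in the lists. The 50 most abundant miRNAs shared 49 and 48 between replicates and 31 or 32 between libraries of different kits. Over 186 miRNAs with at least 4 counts in all 4 libraries, Pearson's correlation of log2 shares was 0.989 and 0.993 within the kits and 0.681 to 0.695 between them, a description across miRNAs that share their libraries. TailorMix was the more concentrated kit, with 64.4% and 64.2% of its miRNA reads in its 10 leading miRNAs against 42.3% and 43.3% with NEBNext.

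Some miRNAs were well counted with 1 kit and all but missing with the other. MIMAT0000131, the third miRNA of NEBNext, had 9773 and 7513 counts there and 1 and 2 counts with TailorMix, a pooled ratio of 5767 (95% exact counting interval 1973 to 27969). MIMAT0004534 had 242 and 175 counts with NEBNext and none with TailorMix, so that it was at least 139-fold lower against a floor of 3 counts over the 2 libraries. In the other direction, MIMAT0000647 had 147 and 145 counts with TailorMix and none with NEBNext, and was at least 97.2-fold higher. MIMAT0022841 had 229 and 281 counts with TailorMix and 1 in each NEBNext library, a pooled ratio of 255 (95% exact counting interval 70.2 to 2109). Each of these 4 passed the test. In all, 12 miRNAs had at least 4 counts in both TailorMix libraries and none with NEBNext, and 18 the reverse. Most of these were scarce, with a median over miRNAs of the mean count of 10 and of 9. A count of 0 allows a share of up to 0.00182% of miRNA reads in the shallowest of these libraries.

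The share of miRNAs that passed varied with their depth. Among miRNAs with a mean of at least 100 counts, 101 of 105 passed (96.2%), against 95 of 116 (81.9%) with a mean of 10 to 100 and 84 of 139 (60.4%) below that. The median standard error of the log2 fold change was 0.12, 0.40 and 0.95 in these groups, so a miRNA below 10 counts that did not pass may still differ.

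The remaining classes are rRNA, the RNA of ribosomes, snRNA, which takes part in splicing and in the processing of histone messengers, snoRNA, which guides modification of other RNAs, and piRNA, known from the germline. They held 40023 and 39512 reads with TailorMix and 54206 and 50766 with NEBNext. Counted by annotated name, 34 of 242 passed (14.0%), each of them higher in TailorMix. This count was not stable. It was 2 without TailorMix replicate 1, without NEBNext replicate 1 or without NEBNext replicate 2, and 16 without TailorMix replicate 2. Reads of genes in many copies are listed under 1 copy each, and the copy changed between replicates: the 5S copy n-R5s136 had 919 counts in NEBNext replicate 1 and 19 in replicate 2. With the 71 listed copies of 5S rRNA and the copies of each snRNA summed, a choice made after seeing the data, 49 of 106 passed (46.2%), 42 higher (39.6%) and 7 lower (6.60%).

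Here too the direction depended on the total. Scaled to the reads of these 4 classes alone, 52 passed, 19 higher and 33 lower, and the median log2 fold change moved by -1.59, from 1.08 to -0.52. On both totals 19 were higher and 7 lower, and 3 passed in opposite directions. The values below are scaled to the annotated reads of a library, as RPM, unless the other total is named.

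5S rRNA, a component of the large ribosomal subunit, was higher on both totals. It had 9297 and 9324 counts with TailorMix against 5517 and 4835, or 1807 and 1759 RPM against 210 and 285 RPM (log2 fold change 2.85 ± 0.29). Scaled to the 4 classes, it took 23.2% and 23.6% against 10.2% and 9.52% and the difference remained (log2 fold change 1.25, adjusted p = 3.10e-06). It made up between 94.4% and 99.3% of the rRNA reads in each library.

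The snRNAs were split. U1, which recognises 5′ splice sites, had 2913 and 3310 counts against 6000 and 5646, and U2, which recognises the branch point, 765 and 808 against 1522 and 1460. Both were higher in RPM (log2 fold change 1.09 ± 0.29 and 1.07 ± 0.32) and lower within the 4 classes (-0.50 and -0.52, adjusted p = 0.00728 and 0.0408). The call of U2 in RPM was lost without TailorMix replicate 1 (adjusted p = 0.0509) or NEBNext replicate 1 (0.113). U12 of the minor spliceosome had 80 and 60 counts against 57 and 32 (2.72 ± 0.41). U7, which acts in the 3′ end formation of histone messengers, stood apart from all of them with 2 and 0 counts against 86 and 80. Its pooled NEBNext share was 20.1 times that of TailorMix (95% exact counting interval 5.46 to 167), and it was lower on both totals.

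**Figure D5:**
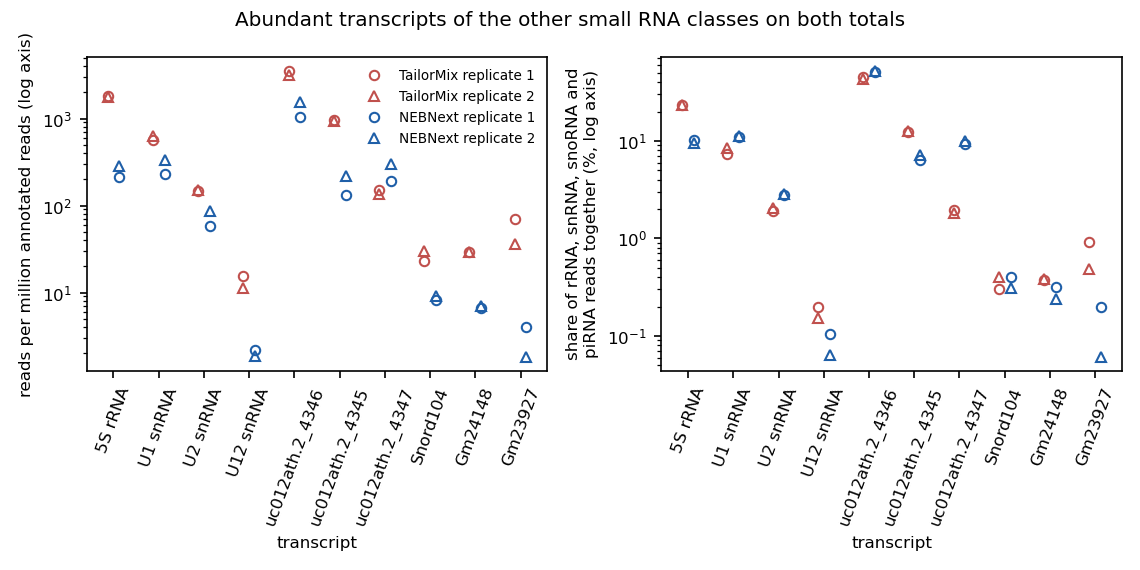
RPM of annotated reads (left) and share of the rRNA, snRNA, snoRNA and piRNA reads together (right, %), both on log axes, for 10 abundant transcripts in each of the 4 libraries (TailorMix red, NEBNext blue, circles and triangles for replicates 1 and 2). 5S rRNA, uc012ath.2_4345 and Gm23927 lie higher with TailorMix on both totals, whereas U1 and U2 change sides.

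Of 90 snoRNAs tested, 30 were higher and 6 lower in RPM, and 14 higher and 6 lower on both totals. Of all 106 RNAs tested in the 4 classes, 42 (39.6%) were higher and 7 (6.60%) lower in RPM. On both totals these were 19 and 7. Nothing particular to snoRNAs is read from these counts. Snord21 had 0 and 0 counts with TailorMix against 17 and 21 with NEBNext, at least 3.06-fold lower against a floor of 3 counts over the 2 libraries. It did not pass without NEBNext replicate 2 (adjusted p = 0.154). Gm22980 had 0 and 1 counts against 29 and 24, a pooled ratio of 12.8 (95% exact counting interval 2.20 to 515). Gm24523 went the other way with 17 and 22 counts against 0 and 0, at least 53.8-fold higher, as did Gm24920 with 40 and 70 against 3 and 0, a pooled ratio of 151.8 (50.6 to 747). Similar copies of a snoRNA at different loci were counted separately, and their sums were not tested. No fold is given for Gm23286, which had 17 and 5 counts against 0 and 0, since it has many such copies. Gm23927, the snoRNA with the most TailorMix reads, had 364 and 193 counts against 106 and 31 (log2 fold change 4.18 ± 0.50), and its replicates differed in both kits. Snord104 had 120 and 160 counts against 218 and 156. It was higher in RPM (1.61 ± 0.35), and its difference was -0.01 within the 4 classes (adjusted p = 0.981).

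Nearly all piRNA reads, at least 99.9% in each library, were listed under entries of a single transcript name, uc012ath.2. The piRNA reads comprised 6921 and 6934 distinct sequences with TailorMix and 7207 and 6726 with NEBNext. The class is that of the annotation, and whether these reads are piRNAs was not tested. The entries within uc012ath.2 shifted against each other. uc012ath.2_4346 made up about the same part of the piRNA reads with both kits, 74.6% and 73.5% against 75.0% and 74.0%. uc012ath.2_4345 took 20.3% and 21.5% with TailorMix against 9.50% and 10.4% with NEBNext, and was higher on both totals (log2 fold change 2.44 ± 0.31 in RPM). uc012ath.2_4347 took 3.26% and 3.15% against 13.7% and 14.2%. It was lower within the 4 classes (log2 fold change -2.34, adjusted p = 2.59e-06) and did not pass in RPM (-0.75 ± 0.31, adjusted p = 0.0628), except without NEBNext replicate 1 (0.0224).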

How the data were processed

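Small RNA of mouse serum was sequenced by the study in 6 libraries, 2 for each of 3 kits. The values used are counts deposited by the authors, 1 list of miRNAs and 1 list of other annotated sequences per library. Per the labels and the study's methods, the authors trimmed adaptors with cutadapt 1.8.1, filtered short and low-quality reads, mapped with Bowtie 1.1.2 without mismatches to GRCm38 and annotated reads by position. The deposited counts are not normalized. Each sequence is listed under 1 class and 1 gene, apart from a few reads with more than 1 class and no gene name. Mapped reads without an annotation are not listed. Shares are therefore of annotated reads. An RNA not listed in a library was taken as 0.

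Counts were summed by miRNA, by tRNA type and anticodon, and by name in the other classes, where copies of 5S, 5.8S and snRNA genes were joined at 90% sequence identity or more (640 of 655 Ensembl identifiers were matched in GENCODE M21). edgeR 4.0.16 (R 4.3.3) fitted all 6 libraries with glmQLFit and glmQLFTest, without a block and with the total of the class as library size (total annotated reads for the other classes). Features reaching 4 counts in 2 or more of the 6 libraries were tested, with Benjamini-Hochberg adjustment and a threshold of 0.05. The TruSeq libraries counted towards this minimum, so a feature with few or no reads in the TailorMix and NEBNext libraries could be tested. Standard errors are the absolute log2 fold change over the square root of F. The scripts were tested on simulated data. Alternatives were TMM, DESeq2 1.42.0, other minimum counts, other totals, the 4 libraries alone, the replicate number as a block, and each library left out. A chi-square comparison of the miRNA counts of replicates gave 1.59 per degree of freedom for TailorMix and 2.16 for NEBNext. They therefore differed by more than counting noise and were kept as separate samples. No source ties the libraries to separate mice one by one, so p-values measure the spread between these libraries, which may be technical.

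The comparison, the RNAs and the lists were chosen with earlier results of these data known. RNAs were named by rule: all tRNA types, anticodons with at least 0.5% of tRNA reads or among the 3 largest changes in a direction, the 3 most abundant and the 3 most changed RNAs of the other classes, and the leading and most changed miRNAs. miRNA lists by family or cell of origin were planned but could not be matched, since no table used here pairs miRBase numbers with names. Blood cell and tissue markers were for that reason not checked. No tRNA sequences were used here. The sequence of 1 RNA is not reported here.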

Additional observations from a re-analysis of the deposited data

Results flagged for a closer look

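Some reads carried the annotation of more than 1 class and no gene name. They entered the total of annotated reads but were compared under no class. They numbered 61 in TailorMix replicate 1, 42 in TailorMix replicate 2, 205 in NEBNext replicate 1 and 130 in NEBNext replicate 2. They are given here because they lie above the 3 reads that a count of 0 allows in each library. Of these reads, 60, 41, 182 and 125 were listed as both piRNA and tRNA. No group here has enough libraries for a test of single outlying libraries.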

How the results depend on the processing

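With 2 libraries a kit, precision rests on a spread estimated partly from other features and from the TruSeq libraries, and depth limits scarce RNAs. In the fit of the anticodons the spread still differed by feature, with standard errors from 0.06 for Gly GCC to 1.26 for Pro CGG. The miRNA calls numbered 200 to 281, the tRNA type calls 12 to 20 and the anticodon calls 24 to 32 over the alternatives run. The 5 miRNAs given by name or number kept their direction and their call under every alternative. With the TMM scaling the log2 fold change turned positive for Ala (0.92), Arg (1.50), Cys (0.50), Glu (1.49), His (0.53), Phe (0.61), Pro (1.40), Trp (1.04) and Val (1.26). Small differences also changed sign: with DESeq2 Arg (0.11), Glu (0.0939) and Pro (0.00016); with 1 library left out Arg (-0.17 to 0.18) and Glu (-0.0303 to 0.0053); and with the tRNA reads other than Glu and Gly as total, chosen after seeing the data, Arg (0.31), Pro (0.20) and Val (0.0673). Among anticodons, Glu CTC (0.22) and Glu TTC (0.14) turned under TMM, as they did with DESeq2 (0.12 and 0.0358). With 1 library left out Glu CTC ran from -0.0231 to 0.0182 and Val CAC from -0.0852, without NEBNext replicate 2, to 0.461. U1, U2, uc012ath.2_4346 and Snord104 turned with the total of rRNA, snRNA, snoRNA and piRNA (-0.50, -0.52, -0.22 and -0.00985). U1 and U2 turned with TMM (-0.14 and -0.17) and, with uc012ath.2_4346, with DESeq2 (-0.39, -0.41 and -0.10).

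For the other classes by annotated name, 34 calls became 2 with TMM, 18 with DESeq2, 80 with no count minimum and 2 with the total of the 4 classes, and ranged from 2 to 51 with 1 library left out. With copies summed, chosen after seeing the data, DESeq2 gave 29 calls instead of 49. With annotated reads other than tRNA as denominator, the difference in class share, TailorMix minus NEBNext, became -4.74 percentage points for piRNA, -1.49 for snRNA and -0.18 for snoRNA. The cause of these changes was not tested.

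Deviations of same-numbered libraries correlated at 0.0869 over 105 miRNAs and 0.0522 over 21 types. With 2 libraries a kit, this cannot tell whether a number stands for the same mouse in both kits. With the replicate block, 260 miRNAs, 14 types, 27 anticodons, 27 other RNAs by name and 53 with copies summed passed. Arg, at 0.00056, was the only RNA named by rule whose sign it changed, and it changed no call of these.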
